A study of Mus musculus with 4 samples.

Results

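The genes described here are 10 mouse enzymes of serine, glycine and folate one-carbon metabolism: Phgdh, Psat1, Psph, Shmt1, Shmt2, Gldc, Srr, Aldh1l1, Aldh1l2 and Mthfd2. Each was found once, by its symbol, among the 45703 genes of the deposited count table. Poly-A RNA was sequenced from 4 astrocyte cultures of the mouse cortex, 1 library per culture. They carry the numbers 1 to 4 in the labels and form a single group. The cells were glia from both frontal cortices of wild-type CD-1 mice, an outbred strain, taken on postnatal day 4 and grown in DMEM/F12 with 10% FCS, 5% HS, B27 and 10 ng/ml EGF. After 6 days the glia were replated, 200000 cells to a dish, and they were lysed 3 days later, following 60 min in Ham's medium free of serum. The labels name no sorting step, and do not say how many mice were pooled or which cultures came from separate animals, so that the spread behind every p-value is that of these 4 libraries and may be technical. No treatment was compared. The questions are therefore which of these enzymes the cultures express, at what relative level, and how far the cultures differ.

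De novo serine synthesis branches off glycolysis: Phgdh oxidises 3-phosphoglycerate, Psat1 transaminates the product, and Psph removes the phosphate. Serine hydroxymethyltransferase then moves a carbon from serine to tetrahydrofolate and leaves glycine, and the folate enzymes pass that carbon on to purines, thymidylate and methionine, or oxidise it to carbon dioxide. In the brain, astrocytes are a known site of serine synthesis, Aldh1l1 is a widely used astrocyte marker, and Srr converts L-serine to D-serine, a co-agonist of NMDA receptors.

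The libraries held 37300485 to 42369109 counts. Levels are given as CPM (counts per 1000000 counts of the library) for one gene across cultures, and as RPKM (CPM per kilobase of exon) wherever genes are compared with each other. Of 11 astrocyte markers 11 were expressed, with Slc1a3 (a glutamate transporter) at 2501 to 2693 CPM and S100b at 6.11 to 14.5 CPM, and so were 6 of 6 microglial, 5 of 7 fibroblast and mural, 5 of 7 oligodendrocyte lineage, 3 of 7 neuronal, 2 of 4 ependymal and 1 of 4 endothelial markers. Among defining markers, Mog of mature oligodendrocytes and Cldn5 of endothelium had at most 0.02 CPM in any culture, and Rbfox3 of neurons at most 0.17 CPM. In such bulk samples, fewer cells of a type and less RNA per cell cannot be told apart. Culture 4 stood apart from the others: 307 of 14725 expressed genes were more than 1.5-fold higher there than the mean of the other 3 cultures and 661 more than 1.5-fold lower, against at most 45 higher and 41 lower in any of cultures 1 to 3, whose comparison means include culture 4. Results that move without culture 4 are given with that value, whose p then rests on 3 libraries that lie close together.

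All 10 enzymes were expressed, here defined as reaching 1 CPM in all 4 libraries. That minimum was passed by 32.2% of all genes in the table and by 58.1% of protein-coding genes. The 10 enzymes together took 1847 ± 35.3 CPM (SD, n = 4), or 0.185% of all counts. Their mean levels ran over a wide range, from 224 RPKM for Aldh1l1 down to 5.21 RPKM for Aldh1l2, and 9 of 10 lay above the median of expressed genes, 7.70 RPKM. Aldh1l1, Psat1 and Phgdh were among the top 1.64%, 2.17% and 4.94% of expressed genes by RPKM.

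**Figure D1:**
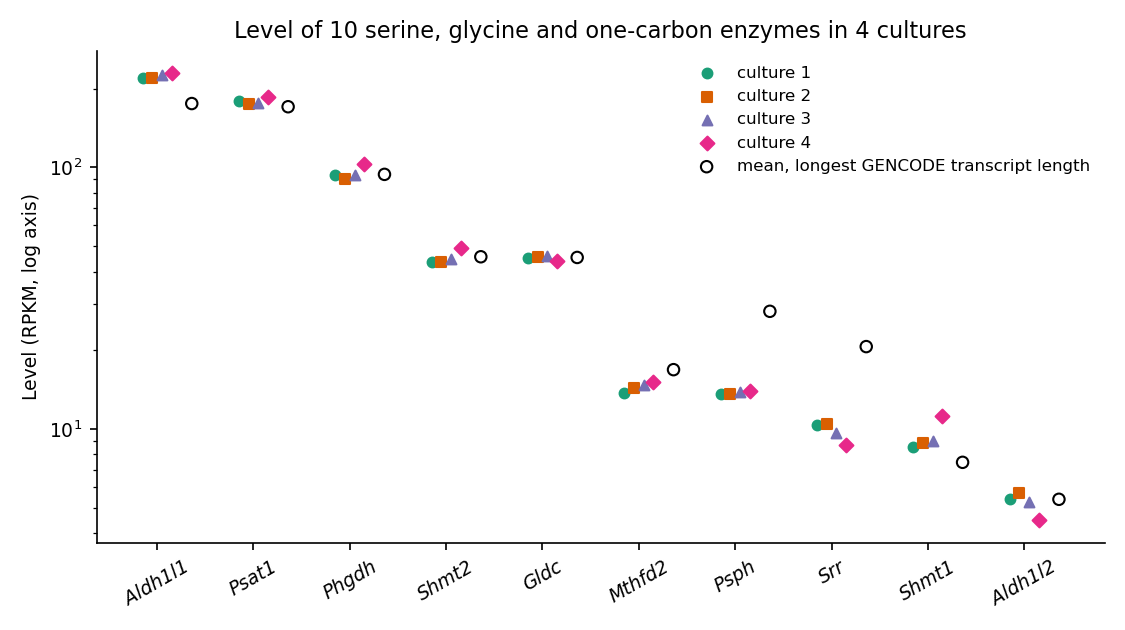
Level of the 10 enzymes in RPKM (log axis) in each of 4 cultures, in descending order of the mean over cultures. Open circles give the mean with the longest GENCODE transcript as the gene length: Psph moves up to 28.2 RPKM and Srr to 20.7 RPKM, against 13.8 and 9.80 RPKM with the deposited exon length.

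Serine synthesis. The first and middle enzymes of the route were abundant and the last was much lower. Psat1, phosphoserine aminotransferase (GeneID 107272, GRCm38.p6 chromosome 19, 15905123 to 15925059, minus strand), had 447, 435, 439.8 and 465 CPM in cultures 1 to 4, a mean of 179 ± 5.30 RPKM (SD, n = 4). Phgdh, the first enzyme of the route (GeneID 236539, chromosome 3, 98313171 to 98339969, minus strand), had 175, 169, 175 and 193 CPM and a mean of 95.2 ± 5.60 RPKM. Culture 4 was the highest for both genes, and cultures 1 to 3 lay close together. Psph, phosphoserine phosphatase (GeneID 100678, chromosome 5, 129765558 to 129787443, minus strand), had 48.4, 48.4, 49.03 and 49.6 CPM and a mean of 13.8 ± 0.16 RPKM, the smallest relative spread of the 10 enzymes (a coefficient of variation of 1.2%, against a median of 6.86% over expressed genes). At its 1829 to 2100 counts per library, counting error alone is expected to exceed that spread. The small value therefore does not show that Psph is a steadier gene.

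Levels of 2 genes were compared within each library, by edgeR's quasi-likelihood test on pairs of genes, each enzyme against every expressed gene, with Benjamini-Hochberg adjustment over all 147195 pairs. Most genes differ in level, so that 96.2% of all pairs passed at 0.05, and a passed pair says little more than that the ratio exceeded the spread between cultures. Psat1 was above Phgdh by a log2 RPKM ratio of 0.91 ± 0.04 (SD over 4 cultures; higher in 4 of 4; edgeR adjusted p = 3.77e-07). Psat1 stood above Psph by 3.70 ± 0.03 and Phgdh above Psph by 2.79 ± 0.07 on the log2 scale (edgeR adjusted p = 4.3e-10 and 3.43e-09; 4 of 4 cultures each). The size of the gap to Psph depended on gene length: the deposited exon length of Psph is 3551 bases, and its longest GENCODE transcript has 1733 bases. With the longest transcripts the log2 ratios to Psph were 2.60 for Psat1 and 1.74 for Phgdh, and with median transcript lengths 2.23 and 1.28, so that Psph was the lowest of the route in each setting.

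The counts of Phgdh and Psat1 were not whole numbers in 4 and 3 of 4 libraries, as where reads are split between features, and their levels are uncertain to that extent. By gene span, the start of Psph overlaps 88 bases of Cct6a, a chaperonin gene on the other strand at 252 CPM. Its counts were whole in all 4 libraries, but without the strand setting of the counting, reads from the shared bases cannot be told apart. The start regions of these 3 genes and of Aldh1l1 are shown because they belong to the route described above and to the most abundant of the 10 enzymes. They are RefSeq sequences of GRCm38.p6, 250 bases before to 50 after an annotated start, 5′ to 3′ on the strand of the gene, with matches to TGNTGNAA and CCAAT on either strand in capitals: Phgdh chr3:98339920-98340219 and Psat1 chr19:15925010-15925309 (minus strand), Psph chr5:129787204-129787503 (minus strand) and Aldh1l1 chr6:90550543-90550842 (plus strand), the last 2 around a start inside the gene's deposited span.
Phgdh: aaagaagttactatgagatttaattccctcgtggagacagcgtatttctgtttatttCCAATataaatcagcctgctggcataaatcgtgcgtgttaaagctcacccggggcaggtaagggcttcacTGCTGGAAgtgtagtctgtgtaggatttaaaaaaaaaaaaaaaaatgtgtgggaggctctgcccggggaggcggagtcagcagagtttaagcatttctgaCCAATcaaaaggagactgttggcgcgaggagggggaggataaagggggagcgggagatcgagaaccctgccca
Psat1: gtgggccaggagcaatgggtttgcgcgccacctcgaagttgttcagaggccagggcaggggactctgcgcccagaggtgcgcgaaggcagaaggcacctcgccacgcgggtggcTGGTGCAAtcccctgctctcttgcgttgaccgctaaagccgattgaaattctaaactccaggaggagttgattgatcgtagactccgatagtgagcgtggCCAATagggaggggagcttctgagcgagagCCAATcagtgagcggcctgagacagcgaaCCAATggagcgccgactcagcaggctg
Psph: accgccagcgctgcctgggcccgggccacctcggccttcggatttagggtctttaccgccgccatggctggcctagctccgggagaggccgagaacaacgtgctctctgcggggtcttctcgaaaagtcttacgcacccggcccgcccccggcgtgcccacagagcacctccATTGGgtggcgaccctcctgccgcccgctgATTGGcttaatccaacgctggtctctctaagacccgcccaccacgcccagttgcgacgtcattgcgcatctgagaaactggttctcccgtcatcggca
Aldh1l1: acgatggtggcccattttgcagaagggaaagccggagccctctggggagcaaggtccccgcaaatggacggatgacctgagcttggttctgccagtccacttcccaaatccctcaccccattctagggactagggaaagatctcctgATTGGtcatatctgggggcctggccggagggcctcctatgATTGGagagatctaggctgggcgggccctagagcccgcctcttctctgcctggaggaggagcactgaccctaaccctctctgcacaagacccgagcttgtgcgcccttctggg

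Windows were available for 9 of the 10 enzymes, with 2 for Psat1. The letters TGATGNAA, the core of the element bound by ATF4, a transcription factor of the amino acid response, were in 0 of 9 enzymes and in 3.97% of all 32851 windows. TGNTGNAA, the same letters with 1 more position open, was found in Gldc, Phgdh and Psat1 (3 of 9 enzymes, 3 of their 10 windows) and in 14.8% of all windows. As printed, Phgdh holds TGCTGGAA and Psat1 TGGTGCAA. CCAAT, the box bound by NF-Y, was in 7 of 9 enzymes (7 of their 10 windows) and in 37.4% of all windows, and the E-box CACGTG in 0 of 9 and in 7.15%. All were searched on both strands, no printed matches overlap, and a match is a description of letters only. Of ATF4 and 6 genes it is known to activate, 7 of 7 were expressed. Atf4 itself was at 37.8 ± 1.36 RPKM and Trib3, a pseudokinase of that response, at 0.64 ± 0.07 RPKM, while Asns, asparagine synthetase, had 10.9 ± 1.29 RPKM.

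Serine to glycine. The mitochondrial hydroxymethyltransferase had the higher RNA level of the 2 forms. Shmt2 (GeneID 108037, chromosome 10, 127517123 to 127522444, minus strand) had 99.9, 100.2, 103 and 114 CPM in cultures 1 to 4, a mean of 45.2 ± 2.84 RPKM. Shmt1, the cytosolic form (GeneID 20425, chromosome 11, 60788897 to 60811265, minus strand), had 19.4, 20.03, 20.5 and 25.3 CPM, a mean of 9.39 ± 1.20 RPKM. Both were highest in culture 4, and Shmt1 had the largest coefficient of variation of the 10 enzymes, 12.8%. That rank rested on culture 4. Over cultures 1 to 3 alone Shmt1 had 19.97 ± 0.54 CPM (SD). Srr, at 79.3 ± 3.48 CPM, and Aldh1l2, at 34.0 ± 1.40 CPM, then had a larger relative spread. Shmt2 was 4.83-fold above Shmt1, a log2 ratio of 2.27 ± 0.09 (SD; 4 of 4 cultures; edgeR adjusted p = 6.96e-09). That ratio was 2.14 in culture 4 and 2.30 to 2.34 in cultures 1 to 3. It lay between 2.30 and 2.63 without the length term and with both GENCODE lengths.

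Glycine cleavage. Gldc, the decarboxylase that opens the cleavage of glycine (GeneID 104174, chromosome 19, 30098441 to 30175441, minus strand), had 170.5, 172, 173 and 167 CPM in cultures 1 to 4, a mean of 45.1 ± 0.76 RPKM. It was lowest in culture 4, at 0.969 times the mean of the others. The other 3 proteins of the complex were expressed as well, at 41.6 ± 1.11 RPKM for the aminomethyltransferase Amt, 74.7 ± 1.09 RPKM for the lipoyl carrier Gcsh and 97.8 ± 6.31 RPKM for Dld, a dehydrogenase that other mitochondrial complexes also use. The counts of Amt and Gcsh were not whole in any library and are uncertain. All 4 genes of the complex thus lay within 41.6 to 97.8 RPKM.

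**Figure D2:**
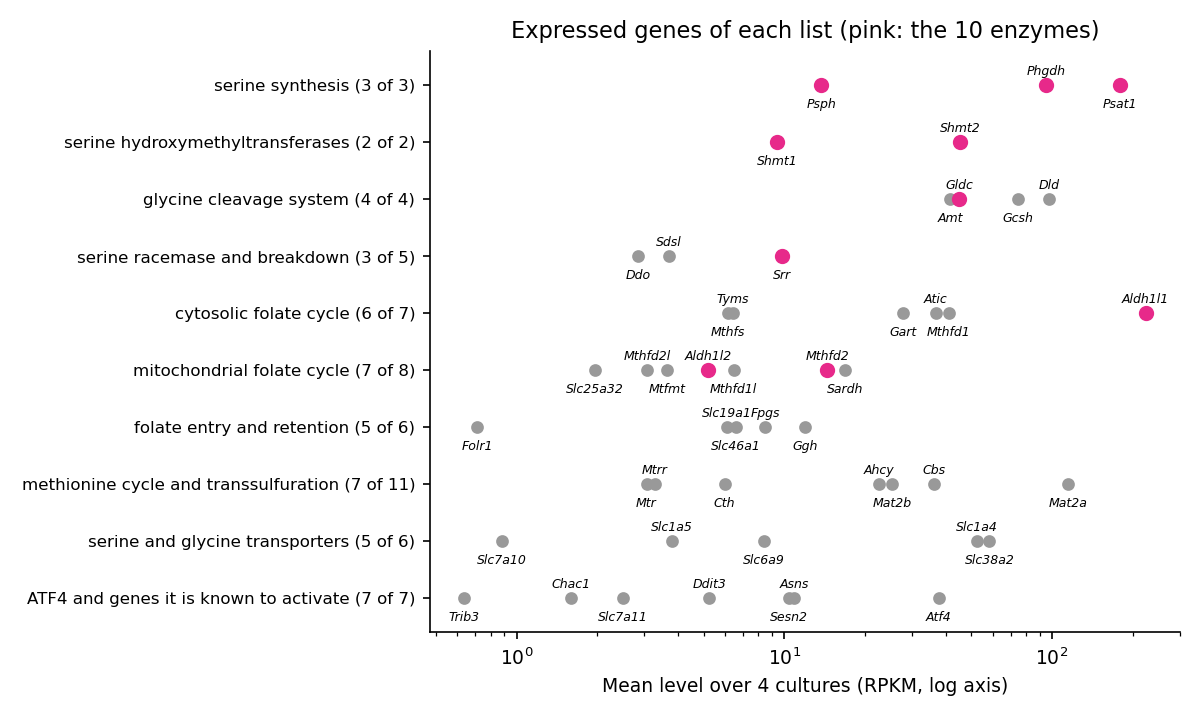
Mean level over 4 cultures (RPKM, log axis) of the expressed genes of 10 lists, with the number expressed of the number in the list. The 10 enzymes are in pink, and the 4 genes of the glycine cleavage system lie between 41.6 and 97.8 RPKM.

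D-serine. Srr, serine racemase (GeneID 27364, chromosome 11, 74904027 to 74927533, minus strand), had 81.0, 81.6, 75.3 and 67.8 CPM in cultures 1 to 4, a mean of 9.80 ± 0.82 RPKM. Culture 4 was the lowest. The deposited exon length of Srr, 7801 bases, exceeds that of its longest GENCODE transcript, 3699 bases, with which its mean level was 20.7 RPKM. By gene span, introns included, Srr shares 5314 bases with Tsr1 (38.0 CPM) and 1680 bases with Smg6 (40.9 CPM), both on the other strand. The exonic part of these overlaps was not measured. The counts of Srr were whole in every library, but reads from the shared stretches cannot be told apart without the strand setting. Of the enzymes that break down serine or D-amino acids, Ddo, which oxidises D-aspartate, was at 2.84 ± 0.38 RPKM and Sdsl, a serine dehydratase-like gene, at 3.71 ± 0.25 RPKM. Dao, the D-amino acid oxidase that degrades D-serine, had 1 count in all 4 libraries together, at or below the floor of 3 counts (0.0708 to 0.0804 CPM in a single library), and Sds, serine dehydratase, had 17 counts. These floors cover counting error only.

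Folate oxidation. The cytosolic and mitochondrial forms of 10-formyltetrahydrofolate dehydrogenase were the top and the bottom of the 10 enzymes. Aldh1l1, the cytosolic form (GeneID 107747, chromosome 6, 90550768 to 90599171, plus strand), had 722, 721, 737 and 752 CPM in cultures 1 to 4, a mean of 224 ± 4.37 RPKM. It ranked 241st of all genes by RPKM, and 115th by CPM, which takes no account of length. Aldh1l2, the mitochondrial form (GeneID 216188, chromosome 10, 83487447 to 83534146, minus strand), had 33.5, 35.6, 32.9 and 27.9 CPM, a mean of 5.21 ± 0.52 RPKM, with counts that were not whole in 2 of 4 libraries. Culture 4 was the highest for Aldh1l1 and the lowest for Aldh1l2. Aldh1l1 was 43.1-fold above Aldh1l2, a log2 ratio of 5.43 ± 0.18 (SD; 4 of 4 cultures; edgeR adjusted p = 3.19e-09). The log2 ratio was 5.03 and 4.96 with the longest and median GENCODE transcripts and 4.50 without the length term.

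Folate interconversion. Mthfd2, the mitochondrial methylene-tetrahydrofolate dehydrogenase and cyclohydrolase (GeneID 17768, chromosome 6, 83305704 to 83326011, minus strand), had 33.3, 34.8, 35.8 and 36.7 CPM in cultures 1 to 4, a mean of 14.5 ± 0.60 RPKM. The cultures lay close together, with culture 4 the highest. Mthfd2 was 4.69-fold above its paralogue Mthfd2l, which had 3.08 ± 0.17 RPKM, by a log2 ratio of 2.23 ± 0.06 (SD; 4 of 4 cultures; edgeR adjusted p = 7.17e-09), or 1.48 with median GENCODE lengths. It was below Mthfd1, the trifunctional cytosolic enzyme at 41.1 ± 3.65 RPKM, with a log2 ratio of -1.504 ± 0.09 (SD; lower in 4 of 4 cultures; edgeR adjusted p = 1.85e-08). Mthfd1l, the mitochondrial formyltetrahydrofolate synthetase, had 6.46 ± 0.22 RPKM.

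**Figure D3:**
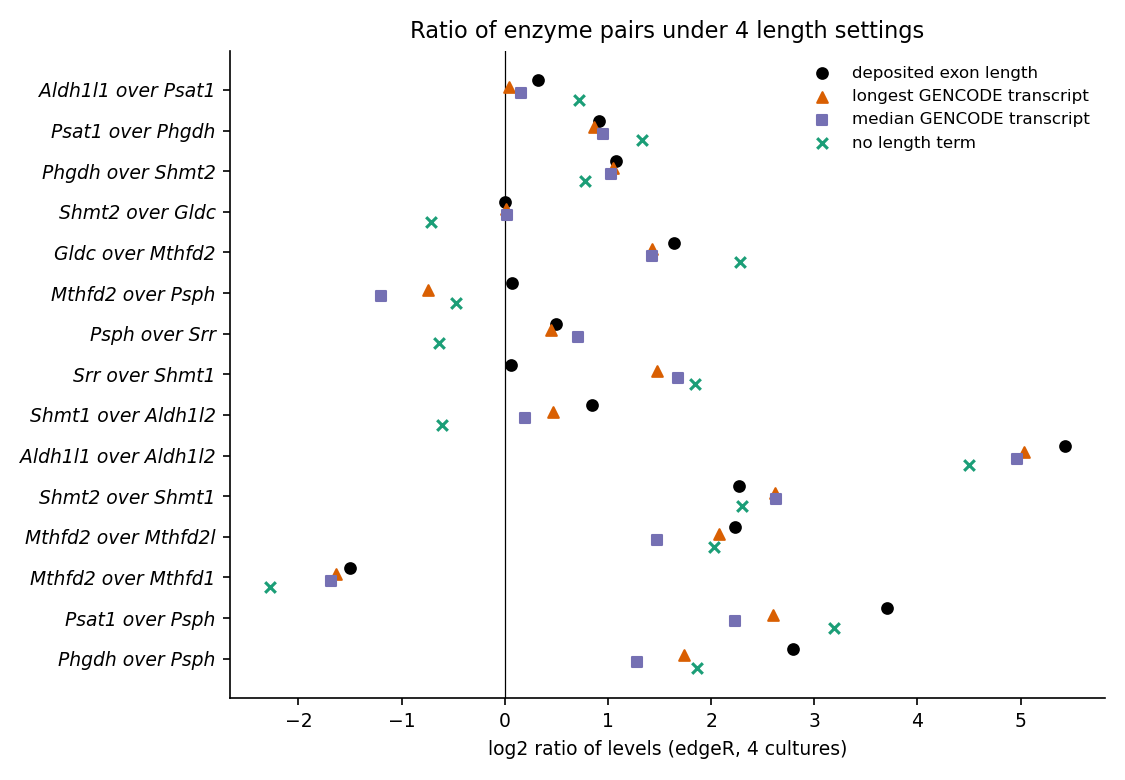
The log2 ratio of levels for 15 pairs (edgeR, 4 cultures) with the deposited exon length, with the longest and the median GENCODE transcript length, and without a length term. Shmt2 over Shmt1 stays between 2.27 and 2.63, while Mthfd2 over Psph lies at 0.07 with the deposited length and below 0 in the other 3 settings.

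In descending order of RPKM the 10 enzymes were Aldh1l1, Psat1, Phgdh, Shmt2, Gldc, Mthfd2, Psph, Srr, Shmt1 and Aldh1l2. Of all 45 pairs among them, 42 differed in the edgeR test, or 93.3%, close to the 96.2% of all pairs tested. The 3 pairs that did not pass were neighbours in this order. Shmt2 and Gldc had a log2 ratio of 0.0036 ± 0.11 (SD, 4 cultures; edgeR adjusted p = 0.944), with Shmt2 higher in culture 4 only. Without culture 4, Gldc was the higher one, with a log2 ratio of Shmt2 over Gldc of -0.051 (edgeR adjusted p = 0.0479). Mthfd2 and Psph had a log2 ratio of 0.07 ± 0.05 (SD; 4 of 4 cultures; edgeR adjusted p = 0.0817), and with the longest GENCODE transcripts Psph was the higher one, at a log2 ratio of -0.74 (edgeR adjusted p = 8.64e-07). Srr and Shmt1 had a log2 ratio of 0.06 ± 0.30 (SD; 3 of 4 cultures; edgeR adjusted p = 0.593). It was -0.36 in culture 4 and 0.10 to 0.28 in cultures 1 to 3. In the fit without culture 4 it was 0.21 (edgeR adjusted p = 3.36e-09). That p uses a spread that edgeR shares over pairs, as does that of Shmt2 over Gldc without culture 4. Unchanged pairs passed too often with it in some simulated sets. The spread of each pair alone was not fitted without culture 4, so these p-values may be too small. Srr was the higher one with other lengths, at a log2 ratio of 1.47 with the longest GENCODE transcripts, 1.68 with the median and 1.85 with no length at all (edgeR adjusted p = 2.62e-06, 1.1e-06 and 5.67e-07).

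The other neighbours were told apart. Aldh1l1 was above Psat1 by a log2 ratio of 0.32 ± 0.03 (SD; 4 of 4 cultures; edgeR adjusted p = 2.84e-05). With the longest GENCODE transcripts the ratio was 0.041 and did not pass (edgeR adjusted p = 0.185). Phgdh was 2.10-fold above Shmt2 and Gldc 3.12-fold above Mthfd2 (edgeR adjusted p = 1.05e-07 and 3.2e-08). Psph was 1.41-fold above Srr (edgeR adjusted p = 0.000142), and Srr the higher one without the length term. Shmt1 was 1.80-fold above Aldh1l2 (edgeR adjusted p = 0.000159), a lead lost with median GENCODE lengths (log2 0.19, edgeR adjusted p = 0.154) and turned round without the length term. With spread taken from each pair alone, an alternative chosen after seeing the data, the same 42 of the 45 pairs passed, with larger p-values. That of Psph over Srr was then 0.00676 and that of Shmt1 over Aldh1l2 was 0.0148 (edgeR, adjusted).

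How the cultures differ. No enzyme was past 1.5-fold in culture 4 relative to the mean of the other 3 cultures, higher or lower (0 of 10 each way, against 2.08% and 4.49% of expressed genes), nor in any other culture. Shmt1 was at 25.3 CPM in culture 4 against 19.4 to 20.5 CPM in cultures 1 to 3, a log2 difference of 0.34 with raw library sums, the farthest of the 10 enzymes on that scale. It was the 1 enzyme more than 25% above the mean of the others there, against 9.79% of expressed genes, and none passed the same fold on the lower side (10.8% of expressed genes). With TMM or DESeq2 scaling Shmt1 was at 0.31 and 0 enzymes passed that fold, and Aldh1l2 was then the farthest, at -0.32 with each. Shmt2 and Phgdh had log2 differences of 0.17 and 0.16. The log2 difference of Aldh1l2 was -0.29, with 27.9 CPM in culture 4 against 32.9 to 35.6 CPM, and that of Srr was -0.22, with 67.8 against 75.3 to 81.6 CPM. Aldh1l1, Psat1, Psph, Gldc and Mthfd2 lay within 0.09 of the others on the log2 scale. In each of the 10 enzymes culture 4 was outside the range of cultures 1 to 3, above it in 7 and below it in 3, against 47.6% and 34.6% of expressed genes. With TMM or DESeq2 scaling 5 enzymes were above, 3 below, and Aldh1l1 and Psph within that range (with TMM, 41.7% of expressed genes were above and 39.9% below). The log2 difference of Psph was then -0.0038 with TMM, in place of 0.03. These are values of a single library, with no test.

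**Figure D4:**
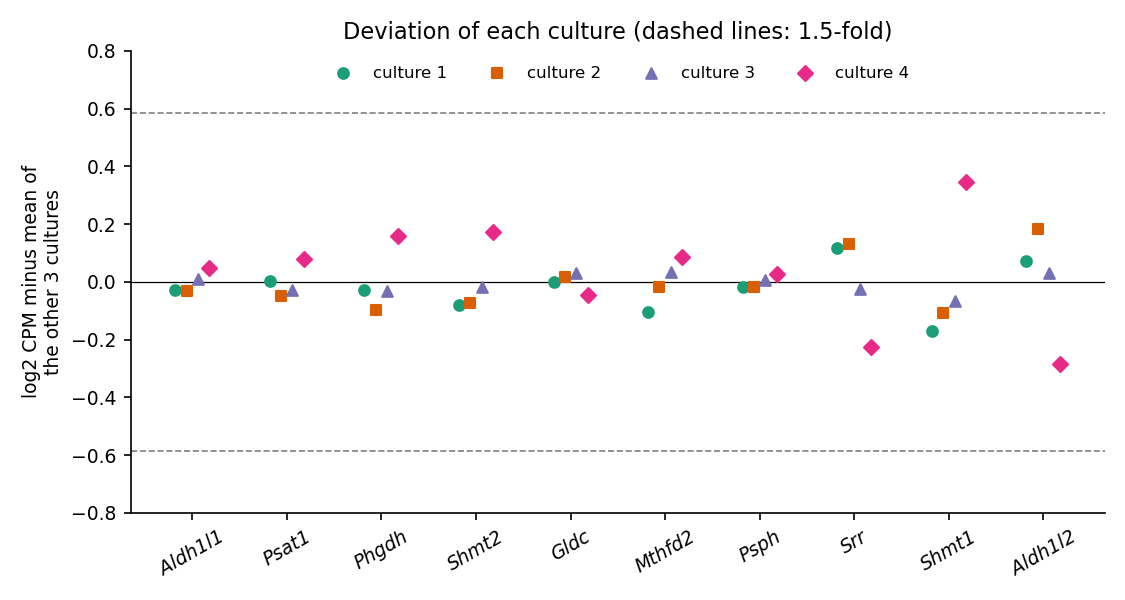
Log2 CPM of each culture minus the mean of the other 3 cultures, for the 10 enzymes, with dashed lines at 1.5-fold. Culture 4 is at 0.34 for Shmt1 and at -0.29 for Aldh1l2, and no point passes a dashed line.

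Marker lists moved with culture 4 as well. With raw library sums, 47.6% of all expressed genes were above the range of cultures 1 to 3 and 34.6% below it. All 10 proliferation markers were above that range, with a summed level of 2513 CPM in culture 4 against 1976 to 2011 CPM. Fibroblast and mural markers summed to 517 CPM in culture 4 against 1363 to 1445 CPM, with 5 of 5 expressed genes lower, microglial markers to 53.2 against 74.7 to 79.5 CPM, with 6 of 6 lower, and astrocyte markers to 8234 against 9706 to 9922 CPM, with 7 of 11 lower and 4 higher. Of 5 expressed oligodendrocyte lineage markers 4 were lower and 1 higher, and of 3 neuronal markers 1 was lower and 1 higher. Of 2 ependymal markers 1 was lower and 0 higher, and the 1 expressed endothelial marker was lower. The part of these lists in the values of Shmt1, Shmt2, Phgdh, Aldh1l2 and Srr was not tested.

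Other folate genes. Of 59 genes in 10 lists around these enzymes, 49 were expressed, the 10 enzymes among them. In the cytosolic folate cycle 6 of 7 were expressed, and 5 of these 6 were above the range of cultures 1 to 3 in culture 4, against 47.6% of expressed genes. Of the mitochondrial folate genes 3 were above and 3 below, and of the glycine cleavage genes 0 above and 3 below. Of all 49 expressed list genes 23 were above and 17 below, against 47.6% and 34.6% of expressed genes. These counts used raw library sums and were not made with other scalings. With TMM or DESeq2 scaling Aldh1l1, 1 of the 5 cytosolic genes, was within that range, and 41.7% (TMM) or 41.3% (DESeq2) of expressed genes were above it. Among the cytosolic genes above that range were genes that use one-carbon units for nucleotides. Tyms, thymidylate synthase, was at 55.9 CPM in culture 4 against 39.1 to 41.6 CPM (counts not whole in 3 of 4 libraries). Of purine synthesis, Gart was at 108 against 91.6 to 93.3 CPM and Atic at 113 against 87.7 to 93.8 CPM (Atic not whole in any library). Ftcd, of histidine breakdown, had no count, which allows up to 3 counts, or 0.0804 CPM in the shallowest library. In the mitochondrial folate cycle 7 of 8 were expressed, with Sardh, sarcosine dehydrogenase, the highest at 16.9 ± 1.07 RPKM. Dmgdh, dimethylglycine dehydrogenase, had 1 count in all. Of 6 genes of folate entry and retention 5 were expressed. They were led by Ggh, which trims the glutamate tail of folates, at 11.996 ± 0.89 RPKM and by Fpgs, which adds it, at 8.50 ± 0.70 RPKM. The transporters Slc46a1 and Slc19a1 stood at 6.57 ± 0.45 and 6.11 ± 0.38 RPKM, the receptor Folr1 at 0.71 ± 0.07 RPKM, and Folr2 was below the minimum at 0.17 ± 0.08 CPM.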

How the data were processed

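Poly-A RNA of 4 astrocyte cultures was sequenced, with a stranded kit, per the labels' protocols. The deposited table gives estimated counts per gene, since 31.7% of values above 0 were not whole. Tools listed, per the submitters' processing notes, are STAR 2.7.2b, featureCounts 1.6.4 and cutadapt 1.17, with the build GRCm38.p6. For their settings, strand included, nothing is given in the sources used here.

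CPM used raw library sums, and RPKM the deposited combined exon length. For the tests, counts were rounded to whole numbers. Pairs of genes were compared with edgeR 4.0.16 (quasi-likelihood, two-sided), with terms for the library (the replicate block, since both genes are measured in the same libraries) and the gene, and an offset of library size times length. Partners were all genes reaching 1 CPM in all libraries, and p-values were adjusted over 147195 pairs. All pairs of an enzyme hold its own counts, so the tests are not independent and a chance deviation of that enzyme is shared by its pairs. The test was checked on simulated counts, where in some sets unchanged pairs passed too often, so a fit with the spread of each pair alone was added. Alternatives were DESeq2 1.42.0, TMM and size-factor scaling, other lengths and minimums, each culture left out, and cultures 1 to 3 summed. Deviations of a culture from the others were not tested. No column of samples was left unused. The text names the 10 enzymes, the pairs fixed by order and function, and in each list the top genes and those not expressed; the ratios to Psph and the other list genes were named after their values were seen. Some genes of the lists are not reported here and enter no list count. The enzymes and lists were chosen with earlier results of these data known.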

Additional observations from a re-analysis of the deposited data

Results flagged for a closer look

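In a check for 1 library far from the other 3, made for 65 values (the 10 enzymes, their sum, 39 other expressed genes of the lists and 15 ratios), 8 values stood out, 7 of them in culture 4. None of the 10 enzymes did so by its own CPM. Chance gives about 1 in 20 values, and 15.2% of the 14725 expressed genes stood out in the same check.

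Genes of the cytosolic folate cycle that were far from the others in culture 4 were Mthfd1, at 193 CPM in culture 4 against 162 to 164 CPM in cultures 1 to 3, Tyms at 55.9 against 39.1 to 41.6 CPM and Gart, of purine synthesis, at 108 against 91.6 to 93.3 CPM. Mtr, methionine synthase, was at 37.0 CPM in culture 4 against 26.9 to 28.2 CPM. Ggh was at 46.6 against 54.2 to 54.5 CPM and Ddit3, a transcription factor of the stress response, at 12.3 against 13.6 to 13.8 CPM. The log2 ratio of Shmt2 over Gldc was 0.17 in culture 4 against -0.06 to -0.03 in cultures 1 to 3. The log2 ratio of Phgdh over Shmt2 was 1.11 in culture 1 against 1.06 in each of the other cultures.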

How the results depend on the processing

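All 10 enzymes and 49 of 59 list genes were expressed in every setting run, and the summed CPM of the enzymes moved by less than 1 SD in all 7 settings run. The number of enzyme pairs that passed was 42 of 45 with the library term, 42 with no replicate block, and 42 to 44 in the other settings. The samples of the single group have no partner group, so the block pairs the 2 genes of a library. Which pairs passed changed with length. Without the length term Phgdh over Gldc was 0.061 and Mthfd2 over Aldh1l2 0.12 on the log2 scale. Neither then passed (edgeR adjusted p = 0.269 and 0.255), while Shmt2 and Gldc, Mthfd2 and Psph, and Srr and Shmt1 did. Of 180 values of 15 ratios under 12 settings, 165 kept direction and call. The choice of gene length moved most of the rest. Without the length term, Shmt2 over Gldc was -0.71, Mthfd2 over Psph -0.48, Psph over Srr -0.64 and Shmt1 over Aldh1l2 -0.61 on the log2 scale, all opposite to the ratio per length. With the longest and median GENCODE lengths Mthfd2 over Psph was -0.74 and -1.20. Srr over Shmt1 was then 1.47 and 1.68, and 1.85 without the length term. Leaving out 1 culture at a time gave -0.051 to 0.026 for Shmt2 over Gldc and -0.0081 to 0.21 for Srr over Shmt1, which was -0.073 with cultures 1 to 3 summed. With a difference of 25% in place of 1.5-fold, 1 enzyme, Shmt1, was past it in culture 4 with raw library sums, and 0 were with TMM or DESeq2 scaling, a setting also added after seeing the data. Every enzyme had at least 3438 counts over the 4 libraries. The median GENCODE length, the spread of each pair alone and the counts of expressed genes with a culture left out were chosen after seeing the data. The causes of these moves were not tested, apart from the length itself.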

Other observations

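Of 11 genes of the methionine cycle and transsulfuration, which receive one-carbon units and serine, 7 were expressed. Mat2a, the methionine adenosyltransferase of most tissues, led at 115 ± 3.97 RPKM (SD, n = 4), followed by Cbs, which joins homocysteine with serine, at 36.1 ± 4.203 RPKM and the regulatory subunit Mat2b at 25.2 ± 0.89 RPKM. Ahcy, which splits S-adenosylhomocysteine, stood at 22.6 ± 1.82 RPKM, with counts that were not whole in all 4 libraries. Cth, the next step after Cbs, had 5.98 ± 0.39 RPKM, and Mtr, methionine synthase, 3.06 ± 0.49 RPKM. The genes Mat1a and Bhmt, known from liver, had no count, Bhmt2 had 0.12 counts and Gnmt 14.5 counts in all 4 libraries together.

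Of 6 transporters of serine and glycine 5 were expressed. Slc38a2 and Slc1a4, which carry serine among other neutral amino acids, had 58.4 ± 6.07 and 52.5 ± 3.05 RPKM. Slc6a9, the glial glycine transporter, had 8.36 ± 1.20 RPKM, at 24.97 CPM in culture 4 against 32.0 to 35.0 CPM in cultures 1 to 3. Slc7a10, an exchanger of D-serine and small neutral amino acids, had 0.88 ± 0.16 RPKM, and Slc6a5, the neuronal glycine transporter, had 4.12 counts in all 4 libraries together.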
